A study of Homo sapiens with 20 samples.

Results

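The EGF receptor ligands and ERBB receptors are 10 of the 57500 genes counted in RNA-seq libraries of cultured human keratinocytes. They were taken by name and comprise the 3 receptors EGFR, ERBB2 and ERBB3 and the 7 ligands AREG, EREG, HBEGF, TGFA, BTC, EPGN and NRG1. All 10 had enough reads to be tested in each comparison. The study asked how loss of the eIF2 kinase GCN2 alters gene expression in keratinocytes before and after wounding. The cells were NTERT, a human keratinocyte line immortalized with telomerase. WT cells carried a control guide RNA. GCN2KO cells were a pool, not a single clone, edited with CRISPR/Cas9 at EIF2AK4, the gene for GCN2, with a guide to exon 2 or exon 12. Which of these guides gave the sequenced cells is not stated in the sources used here. All cells shared a growth supplement that itself contains EGF, and the methods describe differentiation in serum and raised calcium ahead of wounding. Cultures were left unwounded or received a high density wound (HDW), for which pipet tips were drawn across the monolayer, and RNA was taken 6 h after wounding. WT and GCN2KO cells, each unwounded or with HDW, thus formed 4 groups of 5 libraries.

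The EGF family ligands are made as membrane-anchored precursors, and proteases of the ADAM family cut them free to act on the same or neighboring cells. Amphiregulin, epiregulin, HB-EGF, TGF-α, betacellulin and epigen bind EGFR, whereas neuregulin 1 binds ERBB3, and ERBB2 has no ligand of its own and pairs with the other receptors. Active receptors signal through RAS and ERK, PI3K and other transducers, and in keratinocytes this autocrine loop is known for driving proliferation and migration at wound edges.

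The libraries held 14083504 to 34611570 counts. EIF2AK4, the edited gene, read 3980 to 4555 scaled counts in the 10 WT libraries and 806 to 962 in the 10 GCN2KO libraries (unwounded, log2 fold change -2.28 with SE 0.065, edgeR adjusted p = 4.29e-13). A scaled count is the read count divided by the library's TMM effective size relative to the mean over the 20 libraries. GCN2KO unwounded replicates 2 and 4 stood apart from the other 3 libraries of their group on the third principal component (2.31 and -2.75, against -28.4 to -17.6), so results that rest on them are also given without them. All 8 keratinocyte markers were detected in every group, while PTPRC, CD3E and LYZ of the leukocyte list, TYR, TYRP1 and DCT of the melanocyte list and COL1A2, COL3A1, PDGFRA and THY1 of the fibroblast list stayed at or below 10 reads in all libraries. The 4 endothelial markers did too, except VWF in GCN2KO HDW. Of the 8 keratinocyte markers, 2 were higher and 5 lower in GCN2KO unwounded cells at an edgeR adjusted p of at most 0.05. After HDW, 2 were higher and 4 lower. Of all genes tested, 33.4% were higher and 33.1% lower unwounded, and 35.9% and 35.8% after HDW. In unwounded cells KRT5 (log2 fold change 0.50) and SFN (0.17) were higher, and ITGB4 (-0.95), KRT14 (-0.85) and ITGA6 (-0.73) were among the lower ones. The summed per-length level of the 10 keratinocyte differentiation markers was 198 to 278 RPKM before and 235 to 416 after HDW in WT libraries, and 392 to 499 and 455 to 613 RPKM in GCN2KO libraries. RPKM here are reads per kb of annotated exon on TMM effective library sizes. DSG1 and LORICRIN of that list stayed at or below 10 reads. Of the 8 tested, 4 were higher and 2 lower in GCN2KO unwounded cells at the same threshold, so the sum does not stand for each gene. IVL (log2 fold change 1.83), SPRR1A (1.82) and DSC1 (1.10) were among the higher ones, and KRT1 (-1.06) and FLG (-0.93) were lower. DSC1 and KRT1 had few reads, with group means of 12.3 to 36.8 and 11.2 to 22.4 scaled counts, where IVL had 3126 to 17348. The summed level of the 6 melanocyte markers was 0.952 to 1.35 in WT and 2.2 to 3.58 in GCN2KO libraries, where MITF was higher (unwounded, log2 fold change 1.98 with SE 0.17, edgeR adjusted p = 3.94e-08). That of the 5 leukocyte markers, from CD14 and CD68, was 18.7 to 39.2 in WT and 9.54 to 26.7 in GCN2KO libraries. These 2 genes went opposite ways. In GCN2KO, CD14 was lower (log2 fold change -1.10 unwounded and -0.67 after HDW) and CD68 higher (1.00 and 0.53). The summed level of the 8 fibroblast markers was 2.91 to 4.01 in WT and 2.52 to 3.51 in GCN2KO libraries. On that list COL1A1 had group means of 736 to 892 scaled counts and DCN of 23.2 to 54.7. COL1A1 was lower in GCN2KO unwounded cells (log2 fold change -0.27) and after HDW in WT cells (-0.24), with an interaction of 0.36. DCN was lower after HDW in WT cells (-1.23), and higher in GCN2KO than in WT after HDW (0.66). The part of these shifts in the results on ligands and receptors was not tested. All 20 libraries were of the NTERT keratinocyte line. In bulk RNA of this line, fewer cells that express a gene and less RNA of it per cell cannot be told apart. The methods describe replicate platings within each group, and the sources used here do not state whether these came from separate experiments, so the p-values measure the spread between these platings.

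In WT cells, HDW moved most members. At an edgeR Benjamini-Hochberg adjusted p of at most 0.05, 7 of the 10 were higher and 2 lower after HDW, where 26.1% and 25.2% of the 15348 genes tested were. In GCN2KO cells, 2 of the 10 were higher and 2 lower after HDW, where 11.9% and 10.8% of the 15791 genes tested were. Between genotypes in unwounded cells, 5 members were higher and 3 lower in GCN2KO, where 33.4% and 33.1% of 15348 genes were. Between genotypes after HDW, 2 were higher and 5 lower in GCN2KO, where 35.9% and 35.8% of 15855 genes were. The interaction asks whether the change after HDW differs between genotypes, and 4 members, all ligands, had a lower change in GCN2KO and 0 a higher one, where 12.5% and 11.2% of 16536 genes did. At an unadjusted p under 0.05 these counts were 5 and 0, and DESeq2 also called 4 lower and 0 higher.

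A DE gene also had to change by 1 or more on the log2 scale, up or down. By that rule 2 members, EREG and HBEGF, were DE genes after HDW in WT cells (4.17% of all genes tested) and 0 in GCN2KO cells (0.671% of all). EREG alone was a DE gene between unwounded genotypes (16.4% of all) and 0 members were after HDW (14.9% of all). DESeq2 gave 2, 0, 1 and 0 by the same rule. AREG and EREG passed both thresholds in the interaction (3.31% of all). The median log2 fold change of the 7 ligands was 0.79 after HDW in WT cells and 0.0038 in GCN2KO cells, beside -0.0024 and -0.00097 over all genes tested. The comparisons of unwounded genotypes and of HDW in WT cells share the WT unwounded libraries, so their values are given side by side and not as independent results.

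**Figure D1:**
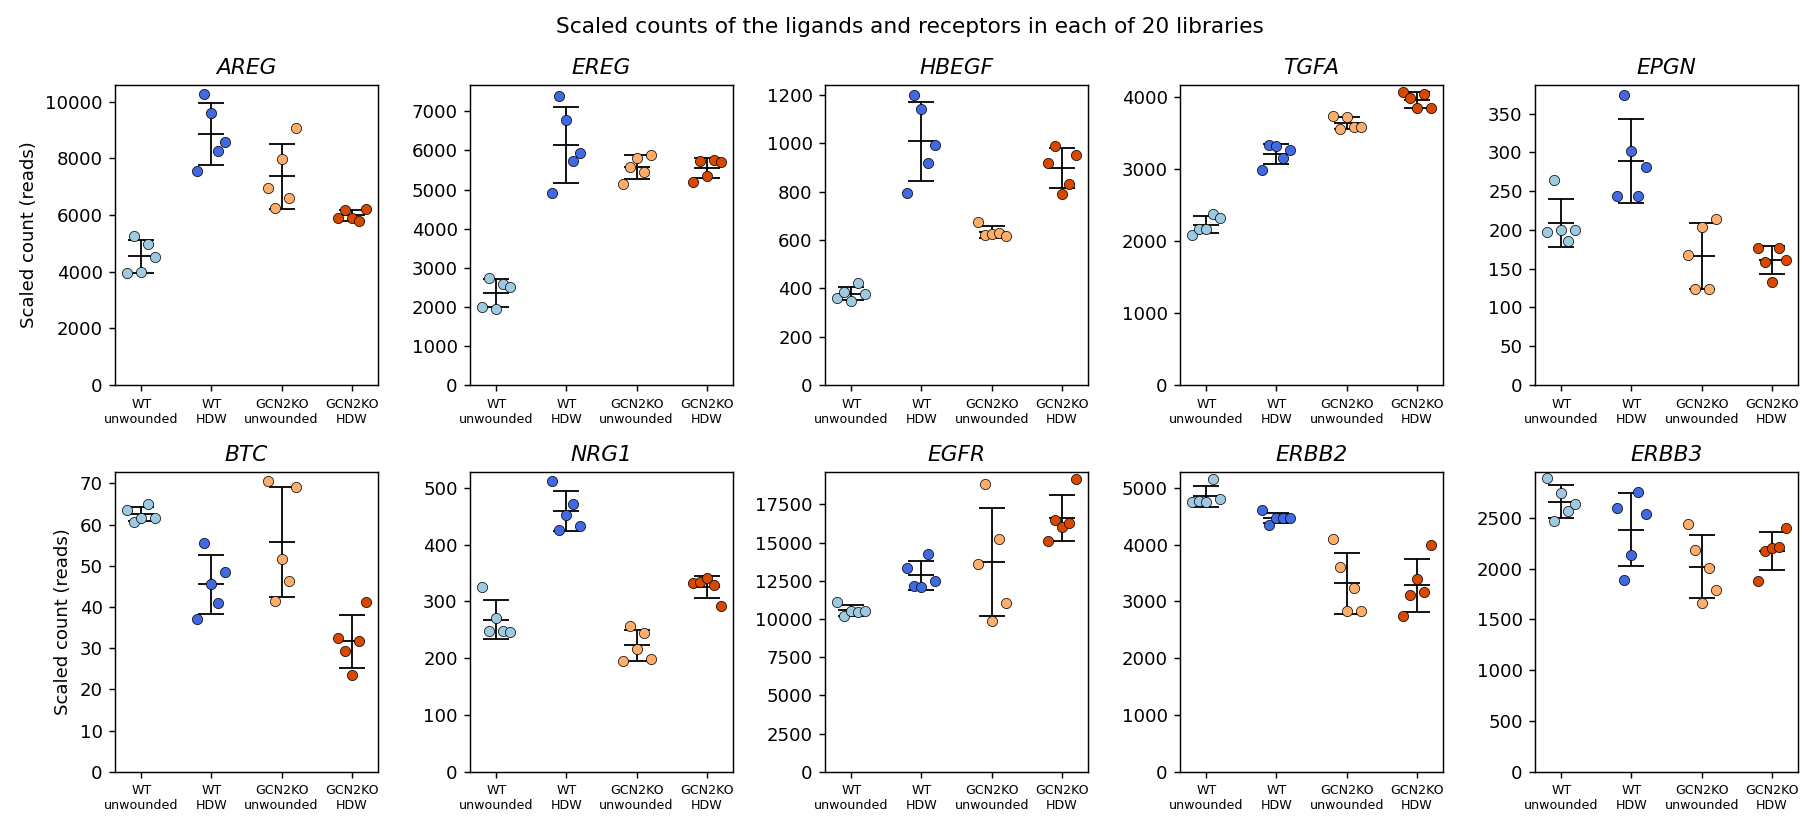
Scaled counts (reads, linear axes starting at 0) of the 7 ligands and 3 receptors, with 1 point per library, 5 libraries per group, and bars for mean ± SD. EREG in the 5 GCN2KO unwounded libraries sits between 5133 and 5889, above all 5 WT unwounded libraries and within the range of WT HDW.

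AREG, EREG, EPGN and BTC lie together on chromosome 4 within 486.1 kb (GRCh38, 74308470 to 74794523) and are the only 4 protein-coding genes there in GENCODE 44. HBEGF lies on chromosome 5 (140332843 to 140346603), TGFA on chromosome 2 (70447284 to 70554193) and EGFR on chromosome 7 (55019017 to 55211628). ERBB2 lies on chromosome 17 (39687914 to 39730426) and ERBB3 on chromosome 12 (56076799 to 56103505). The promoter windows of AREG and EREG are shown because these neighbors had the largest differences between genotypes in their change after HDW. Each window runs from 250 bases before to 50 bases after the start of transcription, on the plus strand of chromosome 4 in GRCh38.p14 (RefSeq), at chr4:74444886-74445185 for AREG and chr4:74364895-74365194 for EREG. Capitals mark the cAMP response element letters in AREG and the TEAD letters, on the reverse strand, in EREG.
AREG: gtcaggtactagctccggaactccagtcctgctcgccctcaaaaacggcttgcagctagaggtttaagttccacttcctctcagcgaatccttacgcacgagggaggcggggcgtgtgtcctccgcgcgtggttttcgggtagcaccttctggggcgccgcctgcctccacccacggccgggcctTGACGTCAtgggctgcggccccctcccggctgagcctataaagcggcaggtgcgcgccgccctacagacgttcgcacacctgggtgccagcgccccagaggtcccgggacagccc
EREG: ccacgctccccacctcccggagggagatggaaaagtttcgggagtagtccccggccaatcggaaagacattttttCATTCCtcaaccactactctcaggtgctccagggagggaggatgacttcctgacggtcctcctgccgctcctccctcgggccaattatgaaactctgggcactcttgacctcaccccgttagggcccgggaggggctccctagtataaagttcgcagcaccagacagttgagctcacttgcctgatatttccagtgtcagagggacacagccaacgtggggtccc
Of the 10 members, 8 had a window in the RefSeq table. These 8 were searched on both strands for TGACGTCA (cAMP response element), TGAGTCA (AP-1), TGATGNAA (C/EBP-ATF composite, CARE) and GGAATG (TEAD), and no matches overlapped. The AREG window held TGACGTCA from position -65, which 1.85% of 35116 promoter windows of the same length also held. The EREG window held the TEAD letters from position -175, as did 14% of all windows. None of the 4 motifs occurred in the windows of HBEGF, TGFA, BTC, EPGN, EGFR or ERBB2, with the ERBB2 window at an upstream start, position -11970 from the MANE Select start. AP-1 and CARE letters stood in 4.95% and 3.62% of all windows. A match of letters describes the sequence and shows no binding.

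AREG, the gene for amphiregulin, rose after HDW in WT cells and fell in GCN2KO cells. The WT unwounded libraries read 3967, 5249.8, 3978, 4988 and 4534 scaled counts. The WT HDW libraries read 7564, 10278, 9619, 8268 and 8587. Every WT HDW library was above every WT unwounded library (log2 fold change 0.96 with SE 0.088, edgeR adjusted p = 3.13e-07). The GCN2KO unwounded libraries read 6949, 6242, 7976, 6601 and 9071 and lay above all WT unwounded libraries (log2 fold change 0.70 with SE 0.10, edgeR adjusted p = 2.01e-05). The GCN2KO HDW libraries read 5885, 6185, 5900.0, 5796 and 6202. These lay below all GCN2KO unwounded libraries (log2 fold change -0.29 with SE 0.090, edgeR adjusted p = 0.034), with 6202 and 6242 as the nearest pair. That fall lost the threshold when any 1 of 6 libraries was left out (GCN2KO unwounded 3 or 5, GCN2KO HDW 1, 2, 3 or 4; edgeR adjusted p = 0.0647 to 0.078), and was -0.41 without GCN2KO unwounded replicates 2 and 4 (edgeR adjusted p = 0.00205). After HDW, AREG was lower in GCN2KO than in WT with no overlap (log2 fold change -0.56 with SE 0.070, edgeR adjusted p = 5.43e-06). The change after HDW differed between genotypes (log2 fold change -1.26 with SE 0.14, edgeR adjusted p = 3.7e-07).

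EREG, the gene for epiregulin, rose after HDW in WT cells, and its unwounded level in GCN2KO cells was already in the range of wounded WT cells. Scaled counts were 1989, 2741, 1955, 2589 and 2511 in WT unwounded and 4904, 7405, 6790.5, 5720.4 and 5926 in WT HDW libraries. The groups did not overlap, with a fold of 2.6 (log2 fold change 1.38 with SE 0.11, edgeR adjusted p = 7.18e-08). In GCN2KO unwounded libraries EREG read 5133, 5587, 5812, 5439.6 and 5889, at least 5133 against at most 2741 in WT unwounded (log2 fold change 1.24 with SE 0.091, edgeR adjusted p = 6.63e-09). In GCN2KO HDW libraries it read 5199, 5733, 5345, 5753 and 5699, a range that overlapped the unwounded one. The change in GCN2KO cells did not pass the test (log2 fold change 0.0038, 95% CI -0.13 to 0.14, edgeR adjusted p = 0.972). After HDW, the 2 genotypes overlapped (log2 fold change -0.15, 95% CI -0.34 to 0.038, edgeR adjusted p = 0.139). That difference passed the test without the filter (-0.18, edgeR adjusted p = 0.0436) and without WT HDW replicate 1 (-0.22, edgeR adjusted p = 0.0127). EREG had the largest interaction of the 10 members (log2 fold change -1.39 with SE 0.13, edgeR adjusted p = 9.11e-08).

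HBEGF, the gene for heparin-binding EGF-like growth factor, rose after HDW in both genotypes, by less in GCN2KO cells. WT unwounded libraries read 359.7, 385, 348, 423 and 377 scaled counts and WT HDW libraries 795, 1199, 1140.2, 917 and 992. The groups did not overlap (log2 fold change 1.41 with SE 0.10, edgeR adjusted p = 2.71e-08). GCN2KO unwounded libraries read 674, 621, 624, 629.5 and 618, above all WT unwounded libraries (log2 fold change 0.74 with SE 0.072, edgeR adjusted p = 1.65e-07). GCN2KO HDW libraries read 919.9, 987, 792, 833 and 952. All 5 lay above the GCN2KO unwounded libraries (log2 fold change 0.51 with SE 0.073, edgeR adjusted p = 0.000645) and within or just below the range of WT HDW (log2 fold change -0.17, 95% CI -0.38 to 0.047, edgeR adjusted p = 0.147). The genotype difference after HDW passed without WT HDW replicate 1 (-0.25, edgeR adjusted p = 0.0206). The difference in the change after HDW passed the test (log2 fold change -0.91 with SE 0.13, edgeR adjusted p = 1.58e-05).

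TGFA, the gene for TGF-α, stood above WT in GCN2KO cells in both states. WT unwounded libraries read 2089, 2165, 2169, 2379 and 2316 scaled counts, and WT HDW libraries 2987, 3325, 3321, 3148 and 3255. TGFA rose after HDW in WT cells without overlap (log2 fold change 0.52 with SE 0.042, edgeR adjusted p = 7.47e-08). GCN2KO unwounded libraries read 3738, 3552, 3715, 3585 and 3584, above all WT libraries of either state (log2 fold change 0.71 with SE 0.058, edgeR adjusted p = 2.26e-08). GCN2KO HDW libraries read 4066, 3983, 3848, 4046 and 3842, all above the GCN2KO unwounded libraries. That step did not pass the test (log2 fold change 0.13, 95% CI 0.019 to 0.25, edgeR adjusted p = 0.0838), although it did with DESeq2 (adjusted p = 0.0324). After HDW, TGFA remained higher in GCN2KO (log2 fold change 0.30 with SE 0.040, edgeR adjusted p = 1.02e-05), and its change was smaller than in WT (log2 fold change -0.40 with SE 0.066, edgeR adjusted p = 8.99e-05).

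**Figure D2:**
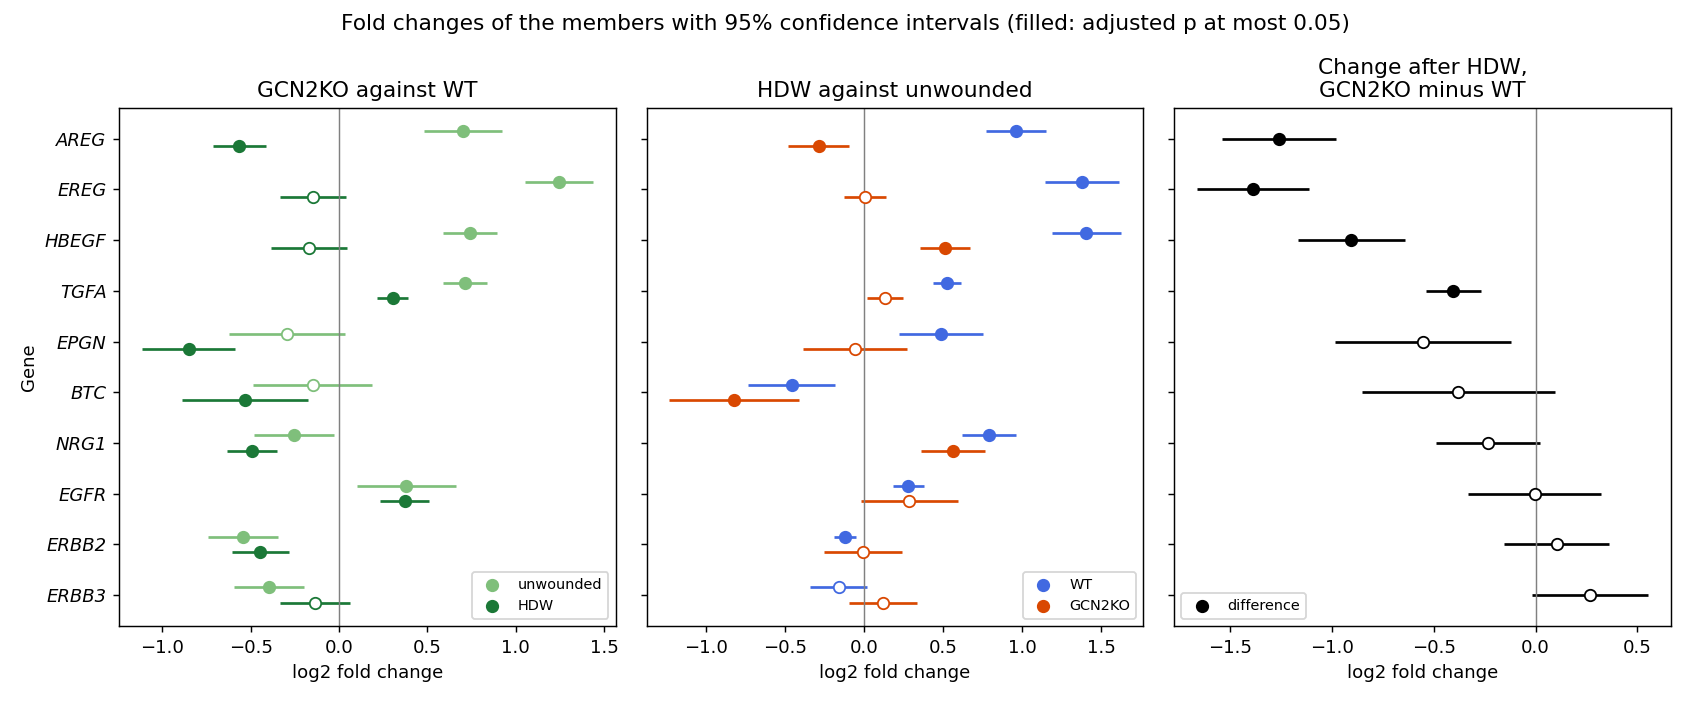
Fold changes of the 10 members on the log2 axis, with 95% confidence intervals as lines and filled points for an edgeR adjusted p of at most 0.05. In the right panel, AREG, EREG, HBEGF and TGFA are the filled points, all below 0, and the other 6 members are open.

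Without GCN2KO unwounded replicates 2 and 4, the interaction was -1.38 for AREG, -1.40 for EREG, -0.92 for HBEGF and -0.42 for TGFA, and all 4 still passed. Over all alternatives their edgeR or DESeq2 adjusted p was at most 0.000574.

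EPGN, BTC and NRG1 were each lower in GCN2KO than in WT cells after HDW. In WT cells EPGN and NRG1 rose after HDW, and BTC fell. EPGN, the gene for epigen, read 197, 264, 199, 186 and 199.5 scaled counts in WT unwounded libraries and 244, 374, 302, 244 and 281 in WT HDW libraries. WT unwounded replicate 2 reached into the HDW range, and the rise passed the test (log2 fold change 0.49 with SE 0.12, edgeR adjusted p = 0.00421). In GCN2KO cells EPGN read 168, 124, 204, 124 and 214 unwounded and 177, 158, 133, 177 and 161 after HDW. These overlapped (log2 fold change -0.055, 95% CI -0.39 to 0.27, edgeR adjusted p = 0.824). After HDW, EPGN was lower in every GCN2KO library than in any WT library (log2 fold change -0.85 with SE 0.12, edgeR adjusted p = 2.45e-05), while unwounded genotypes overlapped (log2 fold change -0.30, 95% CI -0.63 to 0.032, edgeR adjusted p = 0.103). In unwounded cells EPGN passed as lower in GCN2KO without the filter (edgeR adjusted p = 0.027) and without GCN2KO unwounded replicate 3 (edgeR adjusted p = 0.0471) or 5 (edgeR adjusted p = 0.0338). Its interaction missed the threshold (log2 fold change -0.55, 95% CI -0.99 to -0.12, edgeR adjusted p = 0.0571) and passed it without GCN2KO unwounded replicates 2 and 4 (-0.78, edgeR adjusted p = 0.00253), the libraries with the lowest unwounded values, and when any 1 of 5 libraries was left out (edgeR adjusted p = 0.0199 to 0.0433). Those were WT unwounded 2, WT HDW 1 and 4 and GCN2KO unwounded 2 and 4.

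BTC, the gene for betacellulin, had few reads, 19 to 82 per library. Scaled counts were 63.6, 60.7, 61.6, 65 and 61.7 in WT unwounded and 37.1, 55.5, 45.6, 40.9 and 48.4 in WT HDW libraries. BTC fell after HDW in WT cells without overlap (log2 fold change -0.46 with SE 0.13, edgeR adjusted p = 0.0082). It read 70.5, 41.4, 51.7, 46.2 and 69.2 in GCN2KO unwounded and 32.5, 29.3, 23.5, 31.8 and 41.2 in GCN2KO HDW libraries, lower again after HDW with the nearest pair at 41.2 and 41.4 (log2 fold change -0.82 with SE 0.19, edgeR adjusted p = 0.00969). It did not differ past the threshold between unwounded genotypes (log2 fold change -0.15, 95% CI -0.49 to 0.19, edgeR adjusted p = 0.423) and was lower in GCN2KO after HDW (log2 fold change -0.53 with SE 0.17, edgeR adjusted p = 0.0105), with overlap. The interaction of BTC did not pass (log2 fold change -0.38, 95% CI -0.85 to 0.096, edgeR adjusted p = 0.246), so a genotype difference particular to wounded cells was not shown. When libraries were thinned to the smallest total, the fall in WT cells (edgeR adjusted p = 0.108) and the difference after HDW (edgeR adjusted p = 0.0962) did not pass.

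NRG1, the gene for neuregulin 1 (chromosome 8, 31639222 to 32855666), rose after HDW in both genotypes. It read 326, 248, 271, 247 and 247 scaled counts in WT unwounded libraries and 513, 427, 452, 472 and 432 in WT HDW libraries (log2 fold change 0.79 with SE 0.080, edgeR adjusted p = 8.63e-07). It read 196, 258, 217, 245 and 199 in GCN2KO unwounded libraries and 333, 335, 340.5, 329 and 291 in GCN2KO HDW libraries (log2 fold change 0.56 with SE 0.094, edgeR adjusted p = 0.00172). Neither pair of groups overlapped. After HDW, NRG1 was lower in all GCN2KO libraries than in any WT library (log2 fold change -0.49 with SE 0.066, edgeR adjusted p = 1.16e-05). In unwounded cells the groups overlapped (log2 fold change -0.26 with SE 0.11, edgeR adjusted p = 0.046), and this call was lost with DESeq2 (adjusted p = 0.0707) and when any 1 of 5 libraries was left out (WT unwounded 1 or 3, GCN2KO unwounded 1, 3 or 5; edgeR adjusted p = 0.0737 to 0.119). The interval of the interaction was -0.49 to 0.020.

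Among the receptors, EGFR was higher and ERBB2 lower in GCN2KO cells after HDW. EGFR, the receptor for most of these ligands, read 11139, 10166, 10523, 10466 and 10509 scaled counts in WT unwounded and 13313, 12132, 12066, 14249.5 and 12466 in WT HDW libraries. In WT cells it rose after HDW, without overlap (log2 fold change 0.28 with SE 0.047, edgeR adjusted p = 0.000134), and missed the threshold when all 20 libraries shared 1 fit (edgeR adjusted p = 0.051). GCN2KO unwounded libraries read 13589, 18852, 9879, 15214 and 11040.2, and the 2 libraries that stood apart, replicates 2 and 4, were the highest. EGFR was higher than in WT unwounded with overlap (log2 fold change 0.38 with SE 0.13, edgeR adjusted p = 0.0182), and this call was lost without replicate 2 (0.24, edgeR adjusted p = 0.0517) and without both (0.13, edgeR adjusted p = 0.209). GCN2KO HDW libraries read 15112, 16504, 16045, 16269.5 and 19170.3, all above WT HDW (log2 fold change 0.37 with SE 0.065, edgeR adjusted p = 0.000135). The change after HDW in GCN2KO cells did not pass (log2 fold change 0.29, 95% CI -0.020 to 0.59, edgeR adjusted p = 0.155), but did without replicate 2 (0.43, edgeR adjusted p = 0.0156) and without both (0.54, edgeR adjusted p = 0.00199). The interaction had an interval of -0.33 to 0.32. EGFR shares 1.17% of its exonic bases with the antisense gene EGFR-AS1.

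ERBB2, the receptor without a ligand, read 4756, 4772, 4746, 5164 and 4807 scaled counts in WT unwounded and 4607, 4345, 4467, 4465 and 4475 in WT HDW libraries. The step down after HDW was small and without overlap (log2 fold change -0.12 with SE 0.032, edgeR adjusted p = 0.00579), and did not pass when all 20 libraries shared 1 fit (edgeR adjusted p = 0.316). It read 4095, 3599, 2829, 3240.1 and 2832 in GCN2KO unwounded and 2751, 3111, 3397, 3158 and 4002 in GCN2KO HDW libraries. ERBB2 was lower in every GCN2KO library than in any WT library of the same state, both unwounded (log2 fold change -0.54 with SE 0.093, edgeR adjusted p = 7.85e-05) and after HDW (log2 fold change -0.45 with SE 0.075, edgeR adjusted p = 0.000105). It did not change past the threshold after HDW in GCN2KO cells (log2 fold change -0.0039, 95% CI -0.25 to 0.24, edgeR adjusted p = 0.985). Of its exonic bases, 6.93% are shared with MIEN1 and PGAP3 on the opposite strand, and the strand setting of the counting is not given in the sources used here.

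ERBB3, the kinase-impaired receptor for neuregulins, read 2894, 2469.7, 2743, 2567 and 2634 scaled counts in WT unwounded and 2598, 1887, 2139, 2753 and 2542 in WT HDW libraries, with overlap (log2 fold change -0.16, 95% CI -0.34 to 0.016, edgeR adjusted p = 0.12). It read 2439.7, 2189, 1660.3, 2008 and 1790.5 in GCN2KO unwounded and 1882, 2171, 2199.8, 2210.1 and 2398 in GCN2KO HDW libraries. ERBB3 was lower in GCN2KO than in WT unwounded cells without overlap (log2 fold change -0.40 with SE 0.093, edgeR adjusted p = 0.00138) and did not differ past the threshold after HDW (log2 fold change -0.13, 95% CI -0.33 to 0.065, edgeR adjusted p = 0.207). Without WT HDW replicate 2, the difference after HDW passed (-0.21, edgeR adjusted p = 0.0236). The change in GCN2KO cells after HDW did not pass (log2 fold change 0.12, 95% CI -0.098 to 0.33, edgeR adjusted p = 0.411). That in WT cells passed without the filter (edgeR adjusted p = 0.0394) and without WT HDW replicate 4 (edgeR adjusted p = 0.0364). The interaction of ERBB3 did not pass (log2 fold change 0.27, 95% CI -0.018 to 0.55, edgeR adjusted p = 0.169), so a genotype difference particular to unwounded cells was not shown.

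Compared per length, AREG stood above every other member in all 4 groups. AREG stood at 96.2 ± 12.3 RPKM (SD, n = 5) in WT cells before HDW and 188 ± 22.9 RPKM after it, and at 156 ± 24.4 and 127 ± 3.96 RPKM in GCN2KO cells. In WT unwounded cells EGFR followed at 23 ± 0.773, then ERBB2 at 16.3 ± 0.599, TGFA at 15.7 ± 0.846 and EREG at 14.3 ± 2.2, and the ranges of ERBB2 and TGFA and of TGFA and EREG overlapped. ERBB3 (7.9 ± 0.485), HBEGF (4.4 ± 0.334), EPGN (2.2 ± 0.329), BTC (0.819 ± 0.0231) and NRG1 (0.435 ± 0.0554) came next without overlap. In GCN2KO unwounded cells EREG, at 33.9 ± 1.85, stood second, with a range overlapping that of EGFR at 29.9 ± 7.75. MANE Select transcript lengths rescale each gene by a fixed factor, so shifts in level follow from the annotation alone. With them, 35 of 40 group means moved by more than 1 SD, and AREG stayed first in each group. By those lengths EGFR, at 48.1 RPKM, stood above EREG, at 42, in GCN2KO unwounded cells with overlapping ranges, and ERBB2, at 37, stood level with EGFR, at 37.1, in WT unwounded cells.

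The summed level of the 7 ligands was 134 ± 15.3 RPKM before and 264 ± 32.2 RPKM after HDW in WT cells, and 226 ± 26.1 and 202 ± 5.42 RPKM in GCN2KO cells (SD, n = 5). AREG made up 71.6% ± 1.09 of that sum before and 71.1% ± 0.232 after HDW in WT cells, and 68.8% ± 2.69 and 62.9% ± 0.767 in GCN2KO cells. The share of TGFA was 11.8% ± 1.09 before and 8.66% ± 0.696 after HDW in WT cells, and 11.5% ± 1.23 and 13.9% ± 0.572 in GCN2KO cells. In WT cells the TGFA share was thus lower after HDW while its level was higher, and in GCN2KO HDW libraries the AREG share lay below its range in each other group. These shares are a description without a test.

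**Figure D3:**
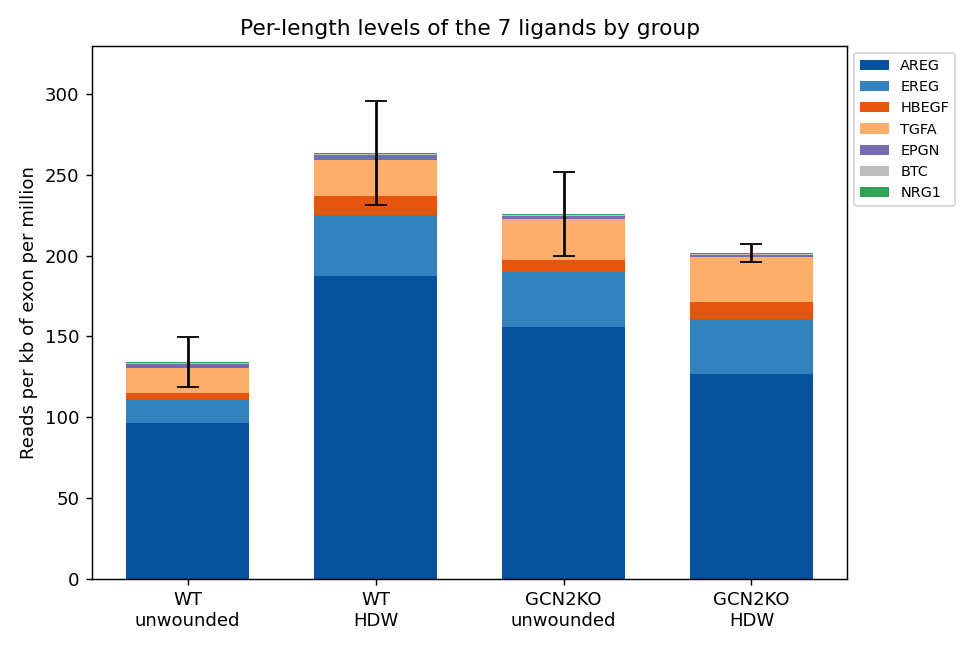
Mean per-length levels (RPKM) of the 7 ligands stacked by group, 5 libraries each, with the SD of the summed level as the error bar. AREG is the largest part of each bar, and the summed level is 134 in WT unwounded and 264 in WT HDW cells.

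The remaining ERBB family genes had few reads. EGF, the founding ligand, read 0 to 5.78 scaled counts in WT unwounded and 15.3 to 22.8 in GCN2KO unwounded libraries (log2 fold change 2.5 with SE 0.36, edgeR adjusted p = 1.27e-05). ERBB4, the fourth receptor, read 23.2 to 51.9 and 0.84 to 9.29 (log2 fold change -3.36 with SE 0.42, edgeR adjusted p = 2.73e-06). Both differed in the same directions after HDW (EGF, log2 fold change 1.66 with SE 0.27, edgeR adjusted p = 6.58e-05, and ERBB4, log2 fold change -2.51 with SE 0.36, edgeR adjusted p = 2.06e-05). NRG4 fell after HDW in WT (log2 fold change -0.81 with SE 0.23, edgeR adjusted p = 0.00859) and in GCN2KO cells (log2 fold change -0.64, edgeR adjusted p = 0.0499), where DESeq2 called 0 of these genes lower. NRG2 and NRG3, at no more than 5 and 1 reads in any library, were not tested.

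Of 10 genes for ligand processing and release, 2 were higher and 8 lower in GCN2KO unwounded cells, where 33.4% and 33.1% of all genes tested were. Their median change was -0.55 on the log2 scale beside 0.0042 over all genes tested. ADAM9, a metalloprotease that can cut HB-EGF, was higher (log2 fold change 1.18 with SE 0.067, edgeR adjusted p = 3.81e-10), as was ADAM17, the main sheddase of EGFR ligands (log2 fold change 0.35 with SE 0.061, edgeR adjusted p = 0.000104). FURIN, which activates ADAM precursors (log2 fold change -1.21 with SE 0.095, edgeR adjusted p = 1.55e-08), the ADAM17 inhibitor TIMP3 (-0.97) and RHBDF2, which escorts ADAM17 to the surface (-0.78), were lower. After HDW, 1 was higher and 8 lower in GCN2KO (35.9% and 35.8% of all genes), led by ADAM9 (1.03) and FURIN (-1.35). In WT cells, 6 rose and 3 fell after HDW (26.1% and 25.2% of all genes), with ADAM17 at 0.23 and TIMP3 at -0.41. In GCN2KO cells, 0 of 10 passed in either direction by edgeR, while 1 was lower at an unadjusted p under 0.05 and 1 by DESeq2. The change of ADAM17 after HDW was lower in GCN2KO than in WT (log2 fold change -0.42 with SE 0.071, edgeR adjusted p = 0.000117).

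Receptor inhibitors and turnover genes, 16 in all, were 5 higher and 8 lower in GCN2KO unwounded cells and 6 higher and 9 lower after HDW. Of all genes tested, 33.4% were higher and 33.1% lower unwounded, and 35.9% and 35.8% after HDW, so the higher counts are near the background. PTPRJ, a phosphatase that acts on EGFR, and LRIG3 were among the lower ones in unwounded cells (-1.40 and -1.33), as was the ubiquitin ligase gene CBLC (-1.19). SH3KBP1, an adaptor in receptor endocytosis, rose in WT cells with HDW (log2 fold change 1.77 with SE 0.047, edgeR adjusted p = 1.45e-12), and its change was lower in GCN2KO (log2 fold change -1.74 with SE 0.10, edgeR adjusted p = 4.39e-11). In GCN2KO cells, 4 of the 16 rose after HDW and 0 fell (11.9% and 10.8% of all genes), led by CBL (0.47), TNK2 (0.41) and PTPN1 (0.40). At an unadjusted p under 0.05, and by DESeq2, 0 fell as well.

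Of 17 adaptors and ERK transducers, 7 were higher and 3 lower in GCN2KO unwounded cells and 10 higher and 3 lower after HDW. The same shares of all genes, 33.4% and 33.1% unwounded and 35.9% and 35.8% after HDW, apply, and the 7 higher ones are near them. GAB2, a docking protein of receptor kinases, was the largest difference in both (2.32 unwounded and 1.61 after HDW), with HRAS at 0.75 and 0.79. MAP2K1, the gene for the ERK kinase MEK1, rose in WT cells with HDW (log2 fold change 0.59 with SE 0.029, edgeR adjusted p = 5.29e-10), with a lower change in GCN2KO (log2 fold change -0.47 with SE 0.065, edgeR adjusted p = 1.35e-05). Of 8 other EGFR transducers, 1 was higher and 5 lower in GCN2KO in each state, beside the same shares of all genes. The higher one was PIK3CB unwounded (0.24) and STAT3 after HDW (0.38), and AKT1 was the lowest (-1.08 unwounded and -1.11 after HDW). STAT3 fell after HDW in WT cells (-0.78), and its change was higher in GCN2KO (0.76).

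Of the early ERK output genes, which ERK signaling switches on, most rose after HDW in each genotype. In WT cells 13 of 14 were higher and 0 lower, where 26.1% and 25.2% of all genes tested were, with FOS at -0.11 the one that did not pass. The median change was 1.08 on the log2 scale beside -0.0024 over all genes tested. SPRY4, a feedback inhibitor of RAS signaling (log2 fold change 2.73 with SE 0.17, edgeR adjusted p = 6.35e-09), and the ETS factor genes ETV5 (1.98) and ETV4 (1.81) rose most, from mean scaled counts of 21, 26.7 and 32 in unwounded WT libraries. In GCN2KO cells 10 of 14 were higher and 0 lower, where 11.9% and 10.8% of all genes were, with a median of 0.59, led by SPRY4 (1.13), FOSL1 (1.08) and DUSP6 (1.01). FOS (0.072), IER3 (0.10), PHLDA1 (0.092) and SPRY2 (0.23) did not pass there. For 9 of 14 the change was lower in GCN2KO than in WT and for 0 higher, beside 12.5% and 11.2% of all genes, with PHLDA1, SPRY4 and ETV5 the largest (-1.05, -1.61 and -1.37). Each of these counts of 0 was also 0 at an unadjusted p under 0.05 and by DESeq2. In unwounded cells the list was split between genotypes, with 33.4% of all genes higher and 33.1% lower. There, 5 were higher in GCN2KO, among them ETV5 (1.69), SPRY4 (1.57) and PHLDA1 (1.20), and 7 lower, among them the immediate early genes EGR1 (-1.66) and FOS (-1.05). After HDW, 4 were higher and 9 lower in GCN2KO, where 35.9% and 35.8% of all genes were, with a median of -0.69. DUSP5 (0.69), IER3 (0.33) and ETV5 (0.32) were among the higher ones, and ETV4 (-2.08), EGR1 (-1.77) and SPRY2 (-1.05) among the lower ones. PHLDA1 read 3567 ± 209 scaled counts before and 7793 ± 524 after HDW in WT cells, and 8151 ± 341 and 8624 ± 445 in GCN2KO cells (SD, n = 5), so that, like EREG, its GCN2KO unwounded mean lay near that of WT HDW.

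**Figure D4:**
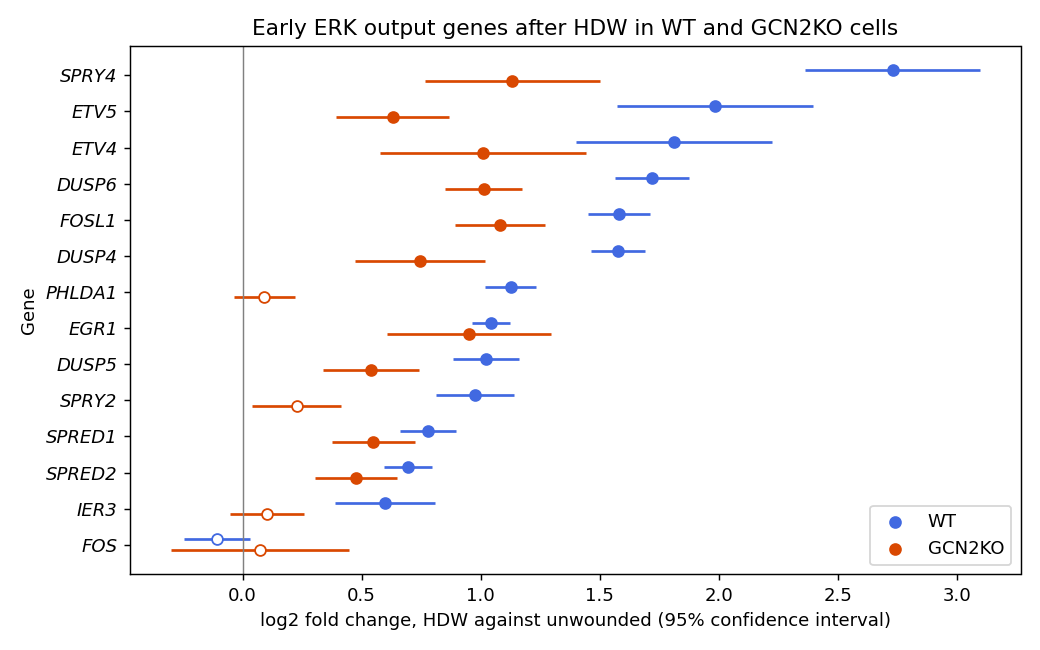
Changes of the 14 early ERK output genes after HDW on the log2 axis in WT and GCN2KO cells, with 95% confidence intervals as lines and filled points for an edgeR adjusted p of at most 0.05. In WT cells 13 points are filled and above 0, and in GCN2KO cells 10 are.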

How the data were processed

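RNA was sequenced from 20 libraries of NTERT cells, 5 in each of 4 groups taken from the sample labels. Reads had been trimmed (Trimmomatic), mapped on GRCh38 (STAR) and assigned to exons (featureCounts, unique alignments) by the authors. What they deposited are raw read counts of each gene, not normalized. The strand setting and annotation release are not given in the sources used here. Of 57500 genes, 56410 were matched to GENCODE 44 for symbols, positions and exon lengths.

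Tests used the quasi-likelihood method of edgeR 4.0.16 under R 4.3.3 (glmQLFTest, TMM normalization, filterByExpr with minimum count 10 and minimum total 15), with Benjamini-Hochberg adjustment over all genes tested. Each comparison used the 10 libraries of its groups, and the interaction all 20. The SE is the log2 fold change divided by the square root of F, and intervals are at 95%. edgeR's test was checked on simulated counts with 200 changed genes and the same dispersion for all genes. Far more genes were called between genotypes in these data, so the check does not cover that setting. Alternatives were DESeq2 1.42.0, its size factors, library size alone, no filter, 1 fit of all libraries, the replicate number as a block, thinning to the smallest total, each library left out and, added after seeing the data, leaving out GCN2KO unwounded replicates 2 and 4 and MANE Select lengths. Total counts, 14083504 to 34611570, set the precision of low genes such as BTC.

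The members, gene lists and tests were chosen with earlier results of these data known. List genes named as past the test are, per list and comparison, the 3 higher and 3 lower ones at most with the largest fold changes. Some list genes that did not pass, or had few reads, are named as such. Promoter windows came from RefSeq (GRCh38.p14).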

Additional observations from a re-analysis of the deposited data

Results flagged for a closer look

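The change after HDW differed between WT and GCN2KO cells for 4 members by the interaction term in edgeR. The log2 difference, GCN2KO minus WT, was -1.26 for AREG, -1.39 for EREG, -0.91 for HBEGF and -0.40 for TGFA. In each of them the WT libraries rose without overlap, and the GCN2KO unwounded libraries already lay above the WT unwounded libraries.

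Within groups of 5, 1 library stood apart from the other 4 in 4 of 40 pairs of a member and a group. ERBB2 read 5164 scaled counts in WT unwounded replicate 4, against 4746 to 4807 in the others. HBEGF read 674 in GCN2KO unwounded replicate 1, against 618 to 629.5 in the others. EPGN read 264 in WT unwounded replicate 2, against 186 to 199.5 in the others. NRG1 read 291 in GCN2KO HDW replicate 5, against 329 to 340.5 in the others. The check is Dixon's gap over range on log2(scaled count + 0.5), with a critical value of 0.71 for 5 libraries, and chance alone gives about 1 such library in 20 groups.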

How the results depend on the processing

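Of 50 pairs of a member and a comparison, 35 kept their side of the threshold under all alternatives run. The fold changes changed sign 34 times in all, 0 of them for a value past the threshold in either setting. Requiring the fold change threshold as well left 1 member higher and 0 lower between unwounded genotypes, 0 and 0 after HDW, 2 and 0 after HDW in WT cells, 0 and 0 in GCN2KO cells, and 2 lower in the interaction. Members lower after HDW in WT cells numbered 1 in place of 2 with all 20 samples in 1 fit and when thinned to the smallest total. The deviations of same-numbered libraries from their group means had a mean r of -0.109 to 0.0332, with single values of -0.325 to 0.133. A low r over all genes cannot exclude a pairing that moves a few genes, so whether the numbers mark a pairing is not decided. With the replicate block, members lower after HDW in GCN2KO cells numbered 1 in place of 2 (AREG, edgeR adjusted p = 0.0629), and with single libraries left out 1 to 2. The block also ended the NRG1 call between unwounded genotypes (edgeR adjusted p = 0.0621), and gave ERBB3 a call after HDW in WT cells (edgeR adjusted p = 0.0378). The cause of these changes was not tested.

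Of the values that changed sign, BTC between unwounded genotypes was 0.027 without GCN2KO unwounded replicates 2 and 4. After HDW in GCN2KO cells, ERBB2 was 0.0089 with library size alone, 0.024 when thinned and 0.024 without those 2 libraries, and -0.087 to 0.082 with single libraries left out. EREG there was -0.0061 with DESeq2, -0.0075 with its size factors, -0.0059 without the filter, -0.0073 in 1 fit of all libraries, -0.0090 without those 2 libraries and -0.025 to 0.027 with single libraries left out, and EPGN was -0.15 to 0.050 with single libraries left out. The interaction of EGFR was 0.058 with library size alone, 0.017 with the replicate block, 0.0051 when thinned, 0.25 without those 2 libraries and -0.098 to 0.14 with single libraries left out.

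Depth limits the low genes. BTC, EGF and ERBB4 had 0 to 82 reads per library and NRG4 had 5 to 30, and NRG2 and NRG3 were not tested. Per-length levels kept within 1 SD under both other scalings.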
